A study of Mus musculus with 9 samples.

Results

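The sterol and fatty acid synthesis genes described here are 30 mouse genes of the pathway controlled by sterol regulatory element-binding proteins (SREBPs). They were taken from a fixed list of 30 names, chosen with earlier results of these data known. Their counts set against shares of all genes are therefore descriptions only. The names were matched through Ensembl identifiers to gene symbols. Genes were kept where the mean over the libraries was at least 5 CPM, that is counts scaled to a common library total. All 30 of 30 passed, out of 12844 genes tested and 47728 genes listed in the series, and the lowest mean, that of Tm7sf2, was 30.6 CPM. By role they are 7 genes of the mevalonate pathway, 11 enzymes from squalene to cholesterol, 5 regulators of SREBP, the sterol transfer protein gene Stard4 and 6 enzymes of fatty acid synthesis.

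Cells make cholesterol from acetyl-CoA through mevalonate, farnesyl diphosphate, squalene and lanosterol, and make fatty acids from acetyl-CoA through malonyl-CoA. The SREBP transcription factors are held in the endoplasmic reticulum with the escort protein SCAP by the INSIG proteins when sterols are plentiful, and are carried to the Golgi, cleaved and sent to the nucleus when sterols fall. Their target genes include most enzymes of both pathways, and muscle cells that fuse into myotubes enlarge and rebuild their membranes.

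The samples are C2C12 cells, cultured mouse myoblasts that stop dividing and form myotubes after serum is withdrawn. The 9 libraries of polyA RNA cover 3 genotypes (Fkbp4 knockdown, Fkbp5 knockdown and a control titled Neg) at days 0, 3 and 5 of differentiation, with 1 library per genotype and day. All groups, the controls included, were grown in 10% fetal bovine serum and changed on day 0 to medium with 1% insulin-transferrin-selenium, and the labels also name HS for later medium changes. The method of knockdown and the number of clones or cultures are not given in the sources used here. All day 3 and day 5 cells had been given the new medium, so time in culture and the medium cannot be told apart.

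Total counts were 3932372 to 5568486 per library, and the member with the fewest reads in any library was Tm7sf2 with 53. Levels are normalised CPM, in which the library total is corrected by an edgeR scaling factor. Fkbp4 stood at 59.9, 27.0 and 23.9 CPM in its knockdown at days 0, 3 and 5 against 239.7, 143 and 137 CPM in the control, and Fkbp5 at 4.45, 3.17 and 4.59 CPM in its knockdown against 20.0, 7.32 and 14.7 CPM. Of 7 myoblast and myotube markers 7 rose from day 0 to day 3, and of 6 markers of cycling cells 6 fell. Mitochondrially encoded genes took 1.78% to 5.01% of the counts in 8 libraries and 10.06% in the Fkbp5 knockdown at day 5. Of 10 adipocyte markers, Adipoq, Plin1, Cidec, Retn, Cfd and Lep had 0 reads in all 9 libraries, which allows up to 0.763 CPM in the shallowest. The summed adipocyte marker level was 8.73 to 37.4 CPM, with the lowest value of each genotype at day 3, and the summed level of 6 immune and endothelial markers was 0.723 to 4.62 CPM. In these bulk samples more cells of a type and more RNA per cell cannot be told apart.

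Most of the 30 genes rose between day 0 and day 3, and 12 of the 18 mevalonate and sterol enzymes then fell. Of these 12, 6 were still called above day 0 at day 5. The desaturase genes Scd1 and Scd2 had no called fall and stayed above their day 0 level, as did 3 of the 18 enzymes. In the edgeR fit with genotype and day as additive terms, which gives the change between days shared by the 3 genotypes, 24 of 30 genes rose from day 0 to day 3 and 0 fell (Elovl6 alone fell at an unadjusted p under 0.05, and DESeq2 and limma voom also called 0 lower). Over all genes tested 26.4% rose and 25.8% fell. The median log2 fold change of the 30 genes was 0.78, against 0.00 over all genes. From day 3 to day 5, 17 genes fell and 1 rose, against 2.39% and 3.77% of all genes, with a median of −0.44. Both steps were passed by 15 of the 30 genes, which rose and then fell, while 1.03% of all genes did so. In 17 of 30 genes day 3 was the highest of the 3 days in each of the 3 genotypes, against 6.99% of all genes.

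The rise was seen in each genotype taken alone. Between days 0 and 3 the level was higher in 27 of 30 genes in the control and in 28 and 27 genes with Fkbp4 and Fkbp5 depleted, where 50.3%, 48.8% and 51.2% of all genes were higher. The median rise was 1.49-fold in the control, against 2.16-fold and 1.73-fold under the Fkbp4 and Fkbp5 knockdowns. Between days 3 and 5 the level was lower in 19, 26 and 25 genes, with median falls of 1.14-fold, 1.53-fold and 1.52-fold in the same order. In that step 49.7%, 49.5% and 48.8% of all genes were lower. These single steps compare 2 libraries each and have no replicate check.

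**Figure D1:**
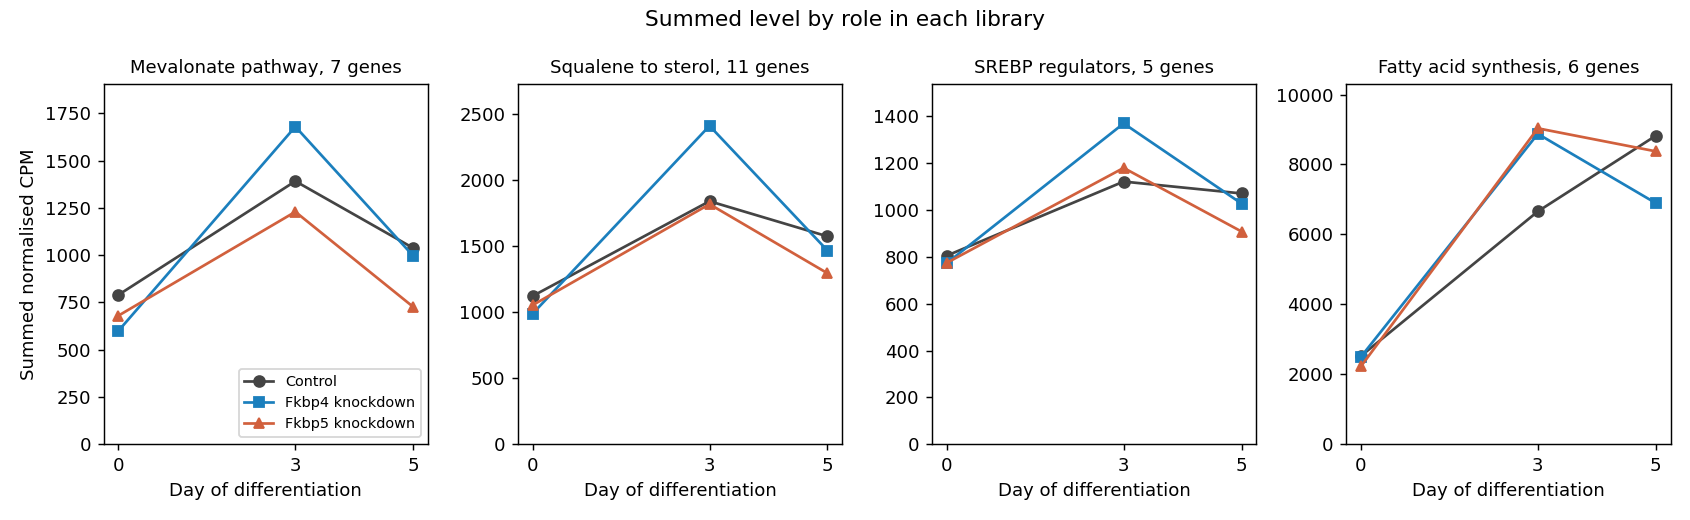
Summed level of the genes of each role, in normalised CPM (vertical axes from 0), against day of differentiation, with 1 point per library and 1 line per genotype. The mevalonate and sterol sums were highest at day 3 in all 3 genotypes, while the fatty acid sum at day 5 was above day 3 in the control and below it in both knockdowns. Scd1 and Scd2 made up most of the fatty acid sum.

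The 7 mevalonate pathway genes supply the isoprenoid units for sterols. Their summed level at days 0, 3 and 5 was 790.3, 1392 and 1038 CPM in the control, 600.0, 1680.3 and 996 CPM in the Fkbp4 knockdown, and 680.4, 1229.7 and 726 CPM in the Fkbp5 knockdown. Of the 7 genes 6 rose to day 3 and 5 fell from day 3 to day 5. Hmgcs1, the cytosolic HMG-CoA synthase (ENSMUSG00000093930, chr13:119690379-119708260 on GRCm38), stood at 228, 497 and 431 CPM in the control, 198, 684 and 398 CPM in the Fkbp4 knockdown, and 202, 471 and 266 CPM in the Fkbp5 knockdown. All 3 day 3 libraries lay above all day 0 and day 5 libraries, with the day 5 libraries between. It rose to day 3 (log2 fold change 1.38, SE 0.15, adjusted p = 3.36e-05) and fell to day 5 (log2 fold change −0.61, SE 0.15, adjusted p = 0.0405), when it was still above day 0 (0.77, adjusted p = 0.00138).

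Idi1, the isomerase that makes dimethylallyl diphosphate, stood at 329, 530.1 and 298 CPM in the control, 195, 532 and 334 CPM in the Fkbp4 knockdown, and 258, 385 and 242 CPM in the Fkbp5 knockdown. At day 0 the control was the highest of the 3 libraries and at day 3 the Fkbp5 knockdown was the lowest, and the day 0 control overlapped the day 5 range. Idi1 rose to day 3 (log2 fold change 0.88, SE 0.17, adjusted p = 0.00134) and fell to day 5 (log2 fold change −0.72, SE 0.17, adjusted p = 0.0317), and its difference between days 5 and 0 did not pass (0.16, adjusted p = 0.436). Fdps, the farnesyl diphosphate synthase, rose 1.38 on the log2 scale and fell by 0.58, and Pmvk, phosphomevalonate kinase, rose 0.87 and fell by 0.72. Acat2, the cytosolic thiolase at the head of the pathway, rose 0.70 and fell by 0.80. Mvd, mevalonate diphosphate decarboxylase, rose (1.25, adjusted p = 4.86e-05) and did not pass in the second step (−0.43, adjusted p = 0.0998). Mevalonate kinase Mvk passed in neither step (0.33 and −0.46), and its contrast of day 3 with the mean of days 0 and 5 was 0.39, adjusted p = 0.0407, a call lost under 8 of 14 alternatives.

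The 11 enzymes from squalene to cholesterol mostly rose to day 3 and differed more in the second step. Their summed level at days 0, 3 and 5 was 1122, 1839.7 and 1574 CPM in the control, 988, 2411 and 1466 CPM in the Fkbp4 knockdown, and 1053, 1817 and 1294 CPM in the Fkbp5 knockdown. Of these enzymes 10 rose to day 3, 7 fell from day 3 to day 5 and 1 rose in that step. Fdft1, squalene synthase, commits farnesyl diphosphate to sterols, and it stood at 109.6, 327 and 223 CPM in the control, 106, 463 and 246 CPM in the Fkbp4 knockdown, and 106, 343 and 226 CPM in the Fkbp5 knockdown. The 3 days did not overlap between genotypes, and the control and the Fkbp5 knockdown had near levels on every day. Fdft1 (chr14:63145150-63179578) rose to day 3 (log2 fold change 1.80, SE 0.12, adjusted p = 7.82e-07) and fell to day 5 (log2 fold change −0.69, SE 0.11, adjusted p = 0.00657). It was the 1 gene of the 18 called between days 3 and 5 whose call passed in all 14 alternative settings.

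Squalene epoxidase Sqle, a rate-limiting step of sterol synthesis, stood at 254, 343 and 305 CPM in the control, 238, 416 and 258 CPM in the Fkbp4 knockdown, and 232, 341 and 257 CPM in the Fkbp5 knockdown. Its day 3 libraries were the highest in each genotype, and the control at day 5 lay above the other libraries of days 0 and 5. It rose (log2 fold change 0.60, SE 0.11, adjusted p = 0.000999) and fell (log2 fold change −0.42, SE 0.11, adjusted p = 0.0493), a fall lost under 10 of 14 alternatives, RLE size factors among them. Lanosterol synthase Lss (chr10:76531588-76557138), which forms lanosterol, the first sterol, stood at 47.3, 96.3 and 78.1 CPM in the control, 55.1, 178 and 90.6 CPM in the Fkbp4 knockdown, and 44.0, 104 and 44.8 CPM in the Fkbp5 knockdown. The Fkbp4 knockdown was the highest library on each day, and at day 5 the Fkbp5 knockdown was back at its day 0 level. Lss rose (log2 fold change 1.34, SE 0.17, adjusted p = 7.72e-05) and fell (log2 fold change −0.83, SE 0.16, adjusted p = 0.0162).

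Cyp51, the lanosterol demethylase, stood at 213, 293 and 237 CPM in the control, 170.0, 392 and 215 CPM in the Fkbp4 knockdown, and 190.4, 262 and 169 CPM in the Fkbp5 knockdown. Day 3 was the highest day in each genotype, although the day 3 level of the Fkbp5 knockdown was closer to the control at day 5 than to the Fkbp4 knockdown at day 3. Cyp51 rose (log2 fold change 0.71, SE 0.15, adjusted p = 0.00213) and fell (log2 fold change −0.61, SE 0.15, adjusted p = 0.0346). Nsdhl, a sterol dehydrogenase of the demethylation steps, stood at 75.1, 168 and 144 CPM in the control, 71.1, 235 and 142 CPM in the Fkbp4 knockdown, and 70.2, 189 and 124 CPM in the Fkbp5 knockdown. Its 3 day 0 libraries were almost level and all 3 day 3 libraries lay above all day 5 libraries. Nsdhl rose (log2 fold change 1.45, SE 0.12, adjusted p = 3.99e-06) and fell (log2 fold change −0.52, SE 0.12, adjusted p = 0.0245).

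The other sterol enzymes divided into those with a called fall after day 3 and those without. Hsd17b7, the keto reductase of the same steps, rose 1.41 on the log2 scale and fell by 0.42, and the methylsterol oxidase Msmo1 rose 0.55 and fell by 0.65. Tm7sf2, a sterol reductase, rose (1.33, adjusted p = 0.000572) and was at 0.07 in the second step, and Dhcr7, the last reductase of one route to cholesterol, rose (1.08, adjusted p = 0.00115) and was at 0.19. The desaturase Sc5d rose to day 3 (0.43, adjusted p = 0.0201). The sterol isomerase Ebp did not pass to day 3 (0.12, adjusted p = 0.381) and was the 1 gene that rose from day 3 to day 5 (0.45, adjusted p = 0.0289), a call lost under 8 of 14 alternatives, DESeq2 among them.

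**Figure D2:**
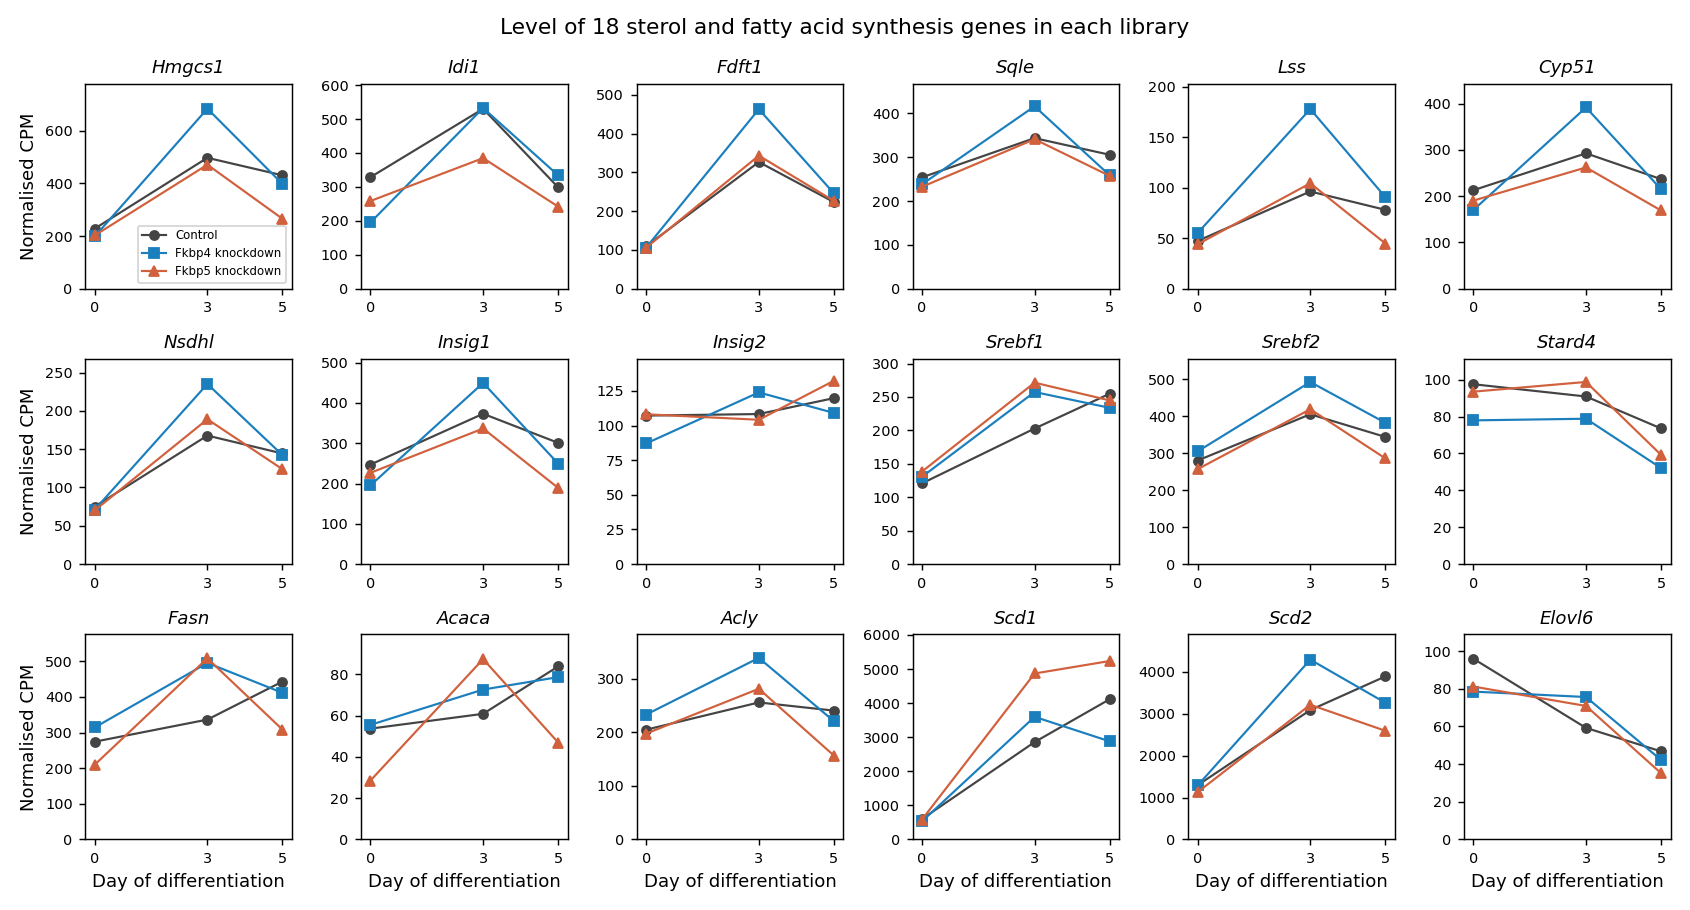
Normalised CPM (vertical axes from 0, a scale per gene) against day of differentiation for 18 genes, with 1 point per library, joined by genotype. The sterol genes from Hmgcs1 to Insig1 peaked at day 3 in every genotype, Scd1 and Scd2 stayed far above their day 0 levels at day 5, and Elovl6 was lowest at day 5.

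The 5 regulators did not move together. Insig1, the INSIG whose gene is itself an SREBP target, stood at 247, 373 and 301 CPM in the control, 195, 449.8 and 249 CPM in the Fkbp4 knockdown, and 227, 337 and 189 CPM in the Fkbp5 knockdown. It was highest at day 3 in each genotype, rising (log2 fold change 0.79, SE 0.15, adjusted p = 0.00115) and falling (log2 fold change −0.67, SE 0.15, adjusted p = 0.0258). Insig2, the INSIG known for control by other signals, stood at 107, 108 and 119.8 CPM in the control, 87.1, 124 and 109 CPM in the Fkbp4 knockdown, and 108, 104 and 132 CPM in the Fkbp5 knockdown. Its libraries of different days overlapped, and it passed in neither step (0.16 and 0.09).

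Srebf2, which encodes the SREBP that acts mainly on sterol genes, stood at 279.8, 405 and 344 CPM in the control, 304, 492 and 382 CPM in the Fkbp4 knockdown, and 256, 418 and 285 CPM in the Fkbp5 knockdown. It rose (log2 fold change 0.65, SE 0.10, adjusted p = 0.000288) and fell (log2 fold change −0.38, SE 0.10, adjusted p = 0.0435). Srebf1, which encodes the SREBPs that act mainly on fatty acid genes, stood at 121, 203 and 255 CPM in the control, 130.5, 257 and 234 CPM in the Fkbp4 knockdown, and 138, 271 and 245 CPM in the Fkbp5 knockdown. All day 3 and day 5 libraries lay above all day 0 libraries. It rose to day 3 (log2 fold change 0.91, SE 0.11, adjusted p = 6.11e-05) and did not pass between days 5 and 3 (0.01, adjusted p = 0.965), when it was still above day 0 (0.92, adjusted p = 4.45e-05). Scap, the escort of the SREBPs, passed in neither step (−0.25 and 0.34).

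Stard4, which carries sterol between membranes, stood at 97.5, 90.9 and 73.5 CPM in the control, 77.9, 78.8 and 52.0 CPM in the Fkbp4 knockdown, and 93.5, 98.8 and 59.2 CPM in the Fkbp5 knockdown. It did not pass to day 3 (0.00, SE 0.10) and fell to day 5 (log2 fold change −0.55, SE 0.10, adjusted p = 0.0127), so that day 5 lay below day 0 (−0.55, adjusted p = 0.000923).

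Of the 6 genes of fatty acid synthesis, 3 rose to day 3 and were still above day 0 at day 5 with no called fall between, namely Fasn, Scd1 and Scd2. The share of all genes with this pattern was not counted. The summed level of the 6 genes at days 0, 3 and 5 was 2522, 6658 and 8822 CPM in the control, 2499, 8875 and 6896 CPM in the Fkbp4 knockdown, and 2226, 9034 and 8376 CPM in the Fkbp5 knockdown. Scd1 and Scd2 made up most of this sum in every library. Of these genes 5 rose to day 3 and 2 fell from day 3 to day 5. Scd1, a stearoyl-CoA desaturase that makes monounsaturated fatty acids, stood at 598, 2855 and 4113 CPM in the control, 528, 3597 and 2878 CPM in the Fkbp4 knockdown, and 579.8, 4868 and 5234 CPM in the Fkbp5 knockdown. All late libraries lay far above all day 0 libraries. Scd1 had the largest rise of the 30 genes (log2 fold change 2.70, SE 0.18, adjusted p = 9.34e-07), did not pass between days 5 and 3 (0.10, adjusted p = 0.78) and was still high at day 5 (2.80). Its paralogue Scd2 stood at 1295, 3089.9 and 3894 CPM in the control, 1289, 4295 and 3264 CPM in the Fkbp4 knockdown, and 1129, 3218 and 2595 CPM in the Fkbp5 knockdown. It rose as well (log2 fold change 1.51, SE 0.14, adjusted p = 1.11e-05) and was at −0.13 in the second step. Both genes lie on chromosome 19, Scd2 at chr19:44293674-44306864 and Scd1 at chr19:44394455-44407879, and each shares under 10% of its 31-base words with other genes.

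Fasn, the fatty acid synthase, stood at 274, 336 and 443 CPM in the control, 314, 495 and 411 CPM in the Fkbp4 knockdown, and 209.8, 508 and 308 CPM in the Fkbp5 knockdown. The control rose on to day 5, while both knockdowns were highest at day 3. Fasn rose to day 3 (log2 fold change 0.76, SE 0.18, adjusted p = 0.00511) and was at −0.21 in the second step. Acaca, the acetyl-CoA carboxylase that makes malonyl-CoA, stood at 53.7, 60.9 and 83.9 CPM in the control, 55.5, 72.6 and 78.7 CPM in the Fkbp4 knockdown, and 28.5, 87.4 and 47.0 CPM in the Fkbp5 knockdown. The Fkbp5 knockdown held both the lowest and the highest library. Acaca rose to day 3 (log2 fold change 0.73, SE 0.24, adjusted p = 0.0254), a call lost when the day 0 library of the Fkbp5 knockdown was left out (adjusted p = 0.112).

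Acly, which makes cytosolic acetyl-CoA from citrate for both pathways, stood at 205, 256 and 241 CPM in the control, 233, 339 and 221 CPM in the Fkbp4 knockdown, and 198, 281 and 157 CPM in the Fkbp5 knockdown. It was highest at day 3 in each genotype and was the 1 fatty acid gene that both rose (log2 fold change 0.46, SE 0.13, adjusted p = 0.0133) and fell (log2 fold change −0.51, SE 0.13, adjusted p = 0.0482). Its fall was lost under 8 of 14 alternatives, RLE size factors among them, and its rise under 3. Elovl6, the elongase of palmitate, stood at 96.0, 59.2 and 46.8 CPM in the control, 78.5, 75.6 and 42.2 CPM in the Fkbp4 knockdown, and 81.2, 70.9 and 35.2 CPM in the Fkbp5 knockdown. It did not pass to day 3 (−0.31, adjusted p = 0.0769) and fell from day 3 to day 5 (log2 fold change −0.74, SE 0.14, adjusted p = 0.0133), which left it below day 0 (−1.04, adjusted p = 8.72e-05). On a scale of mean CPM per kilobase of exon, the members ran from 574 for Scd1 and 489 for Scd2 through 98.4 for Idi1, 92.2 for Insig1 and 81.6 for Hmgcs1 down to 3.70 for Acaca.

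**Figure D3:**
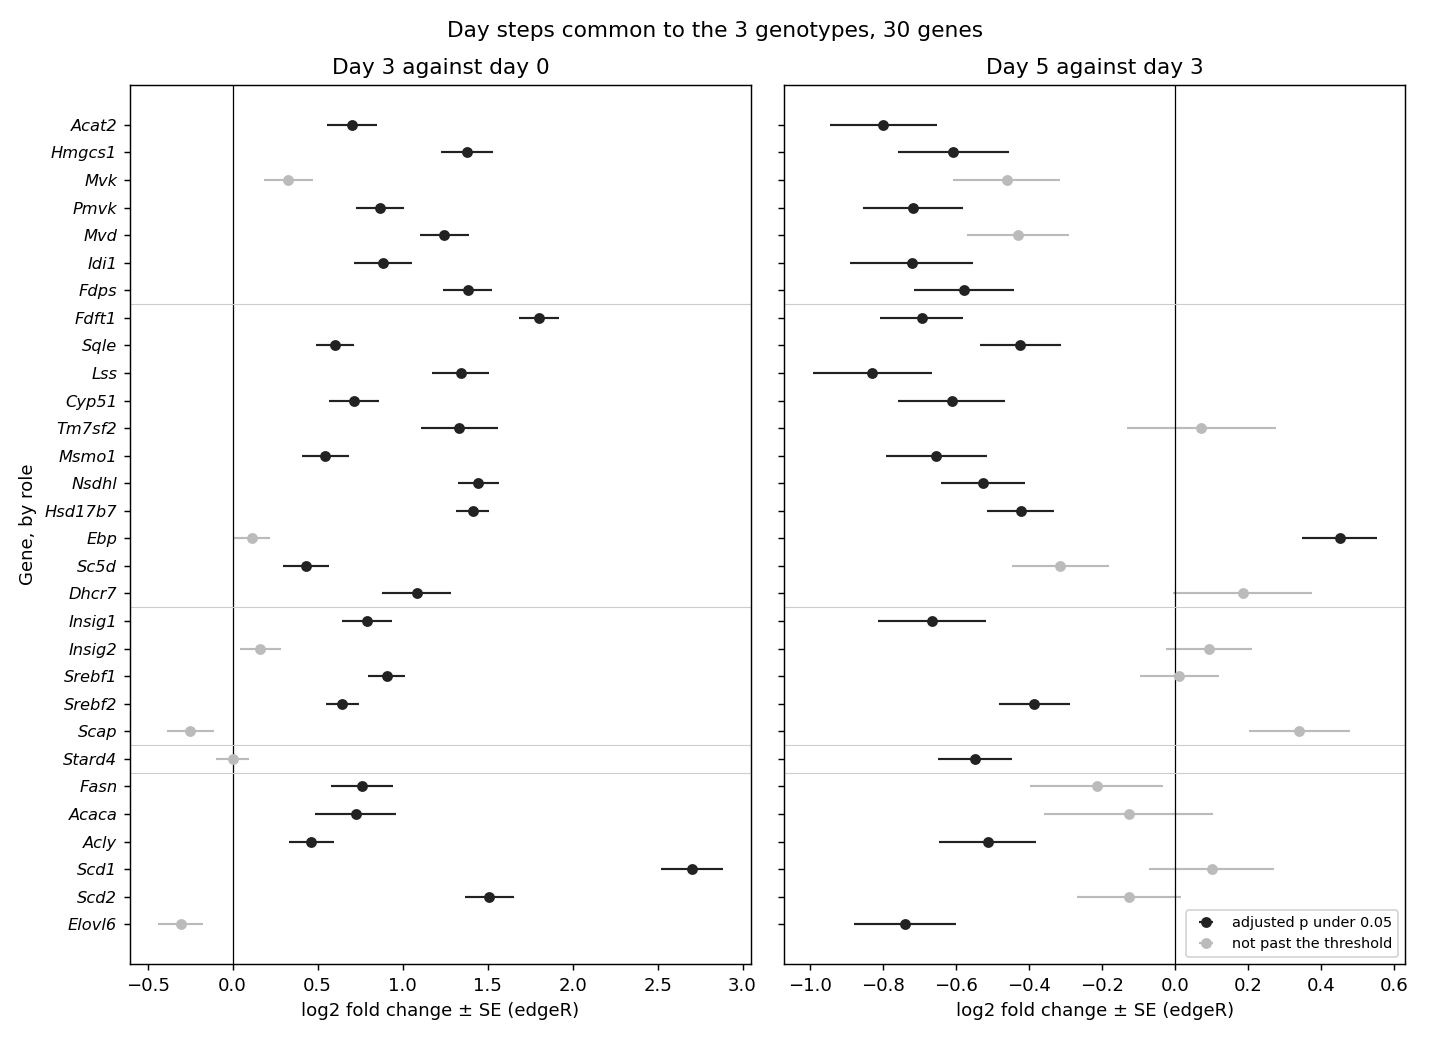
Log2 fold change with its standard error (horizontal axes) for each of the 30 genes, ordered by role, between days 0 and 3 (left) and days 3 and 5 (right). Black points passed an adjusted p of 0.05. On the left 24 genes passed and all of them rose, and on the right 17 of the 18 genes that passed fell, the exception being Ebp.

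Over the whole course, 15 genes were higher at day 5 than at day 0 and 2 were lower, against 29.3% and 28.6% of all genes. Of the 15 genes that rose and fell, 7 were still above day 0 at day 5, namely Hmgcs1, Fdps, Fdft1, Lss, Nsdhl, Hsd17b7 and Srebf2. A further 7 rose to day 3 and did not pass in the second step while staying above day 0, namely Mvd, Tm7sf2, Dhcr7, Srebf1, Fasn, Scd1 and Scd2. The remaining gene above day 0 at day 5 was Ebp. How many of all genes rose and stayed above day 0 with no called fall was not counted. Of all genes 26.4% rose to day 3 and 1.03% rose and then fell, so most genes that rose had no called fall. The day 5 against day 0 calls of Lss, Srebf2 and Fasn were lost in 4, 7 and 2 of 14 alternatives. Of the 18 mevalonate and sterol enzymes 12 rose and fell, and of the 6 fatty acid enzymes 1 did. The contrast of day 3 with the mean of days 0 and 5 was higher in 24 genes and lower in 0, against 13.9% and 10.9% of all genes (edgeR, median 0.62). It was largest in Scd1 (1.30), Fdft1 (1.25), Lss (1.09), Hmgcs1 (0.99) and Nsdhl (0.99). At an unadjusted p under 0.05 it passed in 26 genes, of which Scap was the 1 that was lower, and DESeq2 and limma voom called 0 lower. The contrast is also above 0 in genes that rise and then stay high, so it does not by itself show a peak. Scd1 was highest at day 5 in the control and in the Fkbp5 knockdown. Of 7 myoblast and myotube markers 7 were called higher in the contrast, although 5 of the 7 rose further from day 3 to day 5.

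The calls of a fall from day 3 to day 5 depended on single libraries more than those of the rise did. The count of members that fell was 17 over all 9 libraries, and 1 and 2 when the day 3 or day 5 library of the Fkbp4 knockdown was left out. It was 8 and 1 when that of the Fkbp5 knockdown, and 10 and 8 when that of the control, was left out, and it was 11 when the control of day 0 was left out. Calls over all genes, in either direction, were 791 over all 9 libraries. Without the same libraries they were 322 and 339 for the Fkbp4 knockdown, 804 and 471 for the Fkbp5 knockdown, 250 and 232 for the control, and 634 without the control of day 0. How far the members' loss went with that over all genes was not tested. Apart from that of Fdft1, the 18 calls between days 3 and 5 were each lost in 3 to 10 of 14 alternatives. The count that rose from day 0 to day 3 stayed between 22 and 24 whichever library was left out. Of its 24 calls, those of Sc5d, Acaca and Acly were lost without some library and the other 21 passed in all 14 settings.

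Part of some members' reads is uncertain, since sequence is shared with other genes and the handling of reads with several positions is not given in the sources used here. The share of 31-base words found in other genes was 43.7% for Acat2 (with Acat3 and Tcp1), 33.5% for Acaca, 31.9% for Fdft1 (with Ctsb), 27.9% for Fdps and 27.1% for Idi1, and at most 13.3% for the other 25. Of those 25 members 19 rose to day 3 and 13 fell from day 3 to day 5. Words were compared on both strands, so shared words can come from genes that overlap a member as well as from similar sequence elsewhere. These sources were not separated. The library kit does not mark strand, so reads of overlapping antisense genes cannot be separated.

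Promoter sequence is shown for some of the members that rose and fell together, and for Fasn, which did not pass in the second step. It is given because SREBPs are known to act at sterol regulatory elements with the factors NF-Y and Sp1 bound nearby. Acat2, Pmvk, Msmo1, Hsd17b7 and Acly also rose and fell and had matched promoters, but are not shown. Of these, Pmvk, Msmo1 and Hsd17b7 had a CCAAT before the start, Acly had its only CCAAT after the start, and Acat2 had none. RefSeq promoters (GRCm38.p6, 250 bases before to 50 bases after a start site) were matched for 24 of 30 members, with 32 promoters in all. Unmatched were Fdps, Fdft1, Sqle, Stard4, Scd1 and Scd2. Each line gives 10 bases on each side of the match nearest to the start among those that lie, with both flanks, before it, 5′ to 3′ on the gene's strand, with the match in capitals, ATTGG being CCAAT on the opposite strand.
Hmgcs1, sterol regulatory element: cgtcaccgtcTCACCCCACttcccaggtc
Hmgcs1, CCAAT: cccgcctctcATTGGctgaaagcgg
Idi1, CCAAT: cctccagctgATTGGcgagcccggg
Lss, CCAAT: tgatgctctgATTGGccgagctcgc
Cyp51, CCAAT: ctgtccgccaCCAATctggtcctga
Nsdhl, CCAAT: gactagcctcATTGGgcaaaatcat
Srebf2, CCAAT: tcgcgcgccgATTGGctaatgcaag
Insig1, CCAAT: ccctcctcccATTGGctccggcggc
Insig1, E-box: tgggtgaggtCACGTGgctccggtgg
Fasn, CCAAT: tcggtgtccaATTGGtttcgatgtg

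Coordinates here are those of the whole line shown, flanks included, while distances are those of the match itself. The line with the Hmgcs1 element spans chr13:119690204-119690232, plus strand, and the element starts 137 bases before the start site. The CCAAT shown starts 45 bases before the start in Hmgcs1 (chr13:119690296-119690320, plus strand) and in Idi1 (chr13:8885551-8885575, plus strand), 62 in Lss (chr10:76531533-76531557, plus strand), 29 in Cyp51 (chr5:4104712-4104736, minus strand) and 20 in Nsdhl (chrX:72918491-72918515, plus strand). It starts 135 bases before the start in Srebf2 (chr15:82147124-82147148, plus strand), 216 in Insig1 (chr5:28071186-28071210, plus strand) and 59 in Fasn (chr11:120824592-120824616, minus strand), where the letters overlap a second CCAAT on the other strand. The line with the Insig1 E-box spans chr5:28071301-28071326, plus strand, and the E-box starts 101 bases before the start.

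On either strand, the element TCACNCCAC was found in 1 of 32 member promoters (Hmgcs1, 3.12%) and in 1.24% of all 32851 promoters. CCAAT, the NF-Y motif, was in 21 of 32 (65.6%) against 37.4% of all promoters, and GGGCGG, the Sp1 motif, in 24 of 32 (75.0%) against 35.7%. CACGTG, an E-box that SREBPs can also bind, was in 6 of 32 (18.8%) against 7.15%, in promoters of Hsd17b7, Sc5d, Dhcr7, Insig1 and Scap. These are matches of letters in a short window, several promoters belong to 1 gene, and the shares were compared without a test.

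Related genes were taken from 3 lists, to be read against the shares of all genes given above, which were 26.4% higher and 25.8% lower from day 0 to day 3 and 13.9% higher and 10.9% lower in the contrast of day 3 with days 0 and 5. In the isoprenoid branch, which uses the same precursors for ubiquinone, dolichol and protein prenylation, 2 of 12 genes rose to day 3 and 3 fell, which is not above the shares of all genes, and 0 passed in the contrast of day 3 with days 0 and 5 (edgeR, 2 at an unadjusted p under 0.05). Of 20 tested genes for fatty acid supply, elongation and glycerolipids, 11 rose and 2 fell to day 3, and 9 were higher and 0 lower in that contrast. The largest were the acyl-CoA synthetase Acsl3 (1.06, adjusted p = 0.000335), the glycerol phosphate acyltransferase Gpam (0.88, adjusted p = 4.92e-05) and the phosphatidylethanolamine enzyme Pcyt2 (0.73, adjusted p = 0.00184). Acsl3 stood at 135, 499 and 518 CPM in the control, 117, 689 and 510.1 CPM in the Fkbp4 knockdown, and 153, 437 and 435 CPM in the Fkbp5 knockdown, and its late libraries lay above all day 0 libraries.

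Of 19 tested genes for SREBP processing, sterol sensing, transport and storage, 6 rose and 7 fell to day 3, and 2 were higher and 2 lower in the contrast of day 3 with days 0 and 5, shares near those of all genes. The 2 lower were Lbr (−0.82, adjusted p = 0.00025), a nuclear envelope protein that also has sterol reductase activity, and Erlin1 (−0.36, adjusted p = 0.044), a membrane protein that takes part in the turnover of sterol-sensing proteins. Lbr stood at 103, 36.1 and 35.9 CPM in the control, 116, 33.9 and 37.6 CPM in the Fkbp4 knockdown, and 114, 34.9 and 29.7 CPM in the Fkbp5 knockdown, and all its late libraries lay below all day 0 libraries.

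Against the control, no member passed in either knockdown across the 3 days. The Fkbp5 knockdown differed from the control in 0 of 30 genes and in 2.09% of all genes (edgeR; 1 member at an unadjusted p under 0.05, and 0 by DESeq2 and by limma voom). The members ran from −0.41 in Acat2 (adjusted p = 0.211) to 0.36 in Scd1, with a median of −0.12 and 22 of 30 below 0. The Fkbp4 knockdown differed in 0 of 30 genes and in 1.09% of all genes (edgeR; 3 members at an unadjusted p under 0.05, and 0 by DESeq2 and by limma voom). The members ran from −0.34 in Stard4 to 0.45 in Lss, with a median of 0.01. Acaca was at −0.35, adjusted p = 0.536 in the Fkbp5 knockdown and passed at −0.82 (adjusted p = 0.0195) without its day 3 library, and it also passed without day 3 altogether. With no low-count filter 2 members were lower in the Fkbp5 knockdown, Acat2 among them (−0.43, adjusted p = 0.0158), and Lss was higher in the Fkbp4 knockdown (adjusted p = 0.00722). Both comparisons use the same 3 control libraries.

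Between the knockdowns, where 12.8% of all genes differed, 1 of 30 members was called. Lss was lower in the Fkbp5 than in the Fkbp4 knockdown (log2 fold change −0.71, SE 0.17, adjusted p = 0.0214), and its levels given above do so on each of the 3 days. The call was lost without the Fkbp4 knockdown day 3 or day 5 library or the Fkbp5 knockdown day 5 library, without day 3 or day 5 altogether, and without the day term. Of the related genes, the prenyltransferase subunit Fnta (0.38, adjusted p = 0.0212) and the acyltransferase Agpat2 (0.47, adjusted p = 0.0409) were higher in the Fkbp5 than in the Fkbp4 knockdown. In the same comparison 4 of 7 myoblast and myotube markers were lower in the Fkbp5 knockdown, and 2 of 7 were lower against the control. Their part in the result was not tested.

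On single days the members lay mostly above the control in the Fkbp4 knockdown at day 3, and mostly below it in both knockdowns at days 0 and 5. They were more mixed in the Fkbp5 knockdown at day 3. In the Fkbp4 knockdown at day 3, 27 of 30 genes lay above the control, with a median log2 ratio of 0.36, and the exact 95% counting interval lay above 0 in 26 and below 0 in 1 (Stard4). Of all genes 49.6% lay above. Intervals were calculated for the members only, in both knockdowns and on every day. The counts of intervals off 0 therefore have no share of all genes to be read against. At day 0, 22 genes lay below the control (median −0.14, where 46.3% of all genes lay below), and at day 5, 24 lay below (median −0.13, 49.8%). The interval lay above 0 in 3 and below 0 in 13 genes at day 0, and above 0 in 4 and below 0 in 14 at day 5. The lowest at day 0 was Idi1 at −0.75 (95% interval −0.87 to −0.63), and the highest at day 3 was Lss at 0.89 (95% interval 0.72 to 1.06).

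In the Fkbp5 knockdown 24 genes lay below the control at day 0 (median −0.12), 20 lay above it at day 3 (median 0.09) and 26 lay below it at day 5 (median −0.34), where 49.99%, 49.6% and 49.4% of all genes did so. The interval lay above 0 in 3 and below 0 in 10 genes at day 0, and above 0 in 11 and below 0 in 4 at day 3. At day 5 the interval lay below 0 in 23 genes and above 0 in 1, Scd1, at 0.35 (95% interval 0.32 to 0.38). Among the lowest at day 5 were Acaca at −0.84 (95% interval −1.09 to −0.59) and Lss at −0.80 (95% interval −1.06 to −0.55). The Fkbp5 knockdown day 5 library is the one with 10.06% mitochondrial counts, whose part in these ratios was not tested. Each ratio compares 2 libraries with no replicate check, the intervals cover counting error only, and both knockdowns share the control library of a day.

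**Figure D4:**
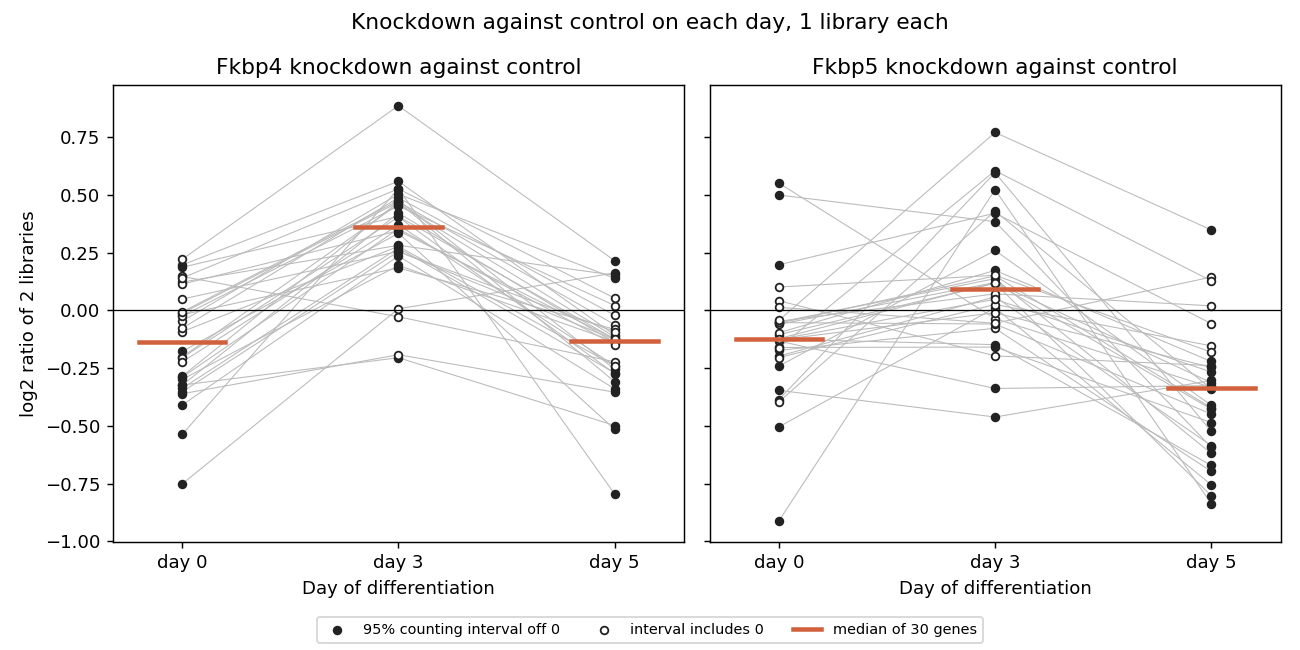
Log2 ratio of the knockdown to the control library (vertical axis) for the 30 genes on each day, joined by gene, for the Fkbp4 (left) and Fkbp5 knockdown (right). Filled points have a 95% counting interval off 0, and the bars are medians: −0.14, 0.36 and −0.13 on the left and −0.12, 0.09 and −0.34 on the right.

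The day 3 peak here means the height of day 3 over days 0 and 5 pooled, also where day 3 was not the highest day. Its size in a knockdown against that in the control was tested in a model with an interaction term. The model had 2 residual degrees of freedom and 1 day 3 library per genotype. For the Fkbp5 knockdown 0 of 30 members and 0.0% of 13372 genes passed (edgeR; 6 members and 883 genes at an unadjusted p under 0.05; DESeq2 called 0 members and 5 genes). The members' median was 0.35, with 25 of 30 above 0, and the largest was Acaca (log2 fold change 1.39, SE 0.20, adjusted p = 0.212), followed by Fasn (1.06, adjusted p = 0.42). With no low-count filter Acaca (adjusted p = 0.000751) and Fasn (adjusted p = 0.00798) passed, and Acaca also passed without the day 0 control library. For the Fkbp4 knockdown 0 of 30 members and 0.0224% of genes passed (edgeR; 16 members and 377 genes at an unadjusted p under 0.05; DESeq2 called 0 members and 5 genes). There the median was 0.53, all 30 members were above 0, and the largest was Tm7sf2 (log2 fold change 1.24, SE 0.24, adjusted p = 0.687). Over all genes the medians were 0.01 in both. In the same test 6 of 6 markers of cycling cells were above 0 for the Fkbp5 knockdown and 6 of 6 below 0 for that of Fkbp4, 0 of them called (edgeR; 2 and 3 at an unadjusted p under 0.05). Their part in these values was not tested, and a difference in the peak cannot be told apart from a difference of the single day 3 libraries.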

How the data were processed

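The values deposited by the authors are raw counts of reads for each Ensembl gene, with 1 file per library. Per the submitters' processing notes the tools were featureCounts 1.4.6, Subread, HISAT2 2.0.2 and CASAVA 1.8 with build mm10, while their roles, the annotation and the handling of reads with several positions are not given in the sources used here. Of 47728 identifiers 47309 matched GENCODE M21. A count of 3 equals 0.539 to 0.763 CPM.

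Counts were analysed with edgeR 4.0.16 (R 4.3.3): filterByExpr, TMM scaling and the quasi-likelihood test on genotype plus day, with 12844 genes and 4 residual degrees of freedom. Days and genotypes stand in for replicates, so p-values rest only on how far these libraries depart from additive genotype and day terms. That departure mixes noise with any difference in day course between genotypes. The peak interaction had 13372 genes. Tests were two-sided, with Benjamini-Hochberg adjustment over all genes, and calls at an adjusted p under 0.05. SEs were calculated back from the fold change and the root of its F statistic. Only the Fkbp5 knockdown contrast, and false calls of its day 3 peak interaction, were checked on simulated data, which held no day effects. The day contrasts were not simulated. Alternatives were other scaling, no filter, DESeq2 1.42.0, limma voom 3.58.1, no mitochondrial genes, left-out libraries or days, no day term and other CPM minimums.

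The genes named in full are 15 preset members, members called between genotypes and the 5 with the largest day 3 contrast, with from the related lists the 3 largest in each direction and those called between genotypes. Members and lists were chosen with earlier results of these data known.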

Additional observations from a re-analysis of the deposited data

Results flagged for a closer look

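In 3 members the knockdown lay above the control on 1 day and below it on another, by at least 0.5 on the log2 scale and with counting intervals off 0 on both days. The differences between single days were not tested. Fasn in the Fkbp5 knockdown was at 0.60 on day 3 and −0.52 on day 5. Acaca in the Fkbp5 knockdown was at −0.91 on day 0, 0.52 on day 3 and −0.84 on day 5, on 109, 386 and 215 reads against 244, 258 and 348 in the control. Tm7sf2 in the Fkbp4 knockdown was at −0.54 on day 0, 0.53 on day 3 and −0.80 on day 5, on 63, 239 and 139 reads against 83, 124 and 210. The test of the day 3 peak against that of the control, which pools days 0 and 5, gave 1.39, adjusted p = 0.212 for Acaca, 1.06, adjusted p = 0.42 for Fasn and 1.24, adjusted p = 0.687 for Tm7sf2 (edgeR), so none of these passed, while with no low-count filter Acaca (adjusted p = 0.000751) and Fasn (adjusted p = 0.00798) did.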

How the results depend on the processing

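The rise from day 0 to day 3 kept 22 to 24 members in every alternative, and the day 3 contrast 17 to 25 when 1 library was left out. Members that fell from day 0 to day 3 numbered 0 to 1 over left-out libraries (Elovl6 without the Fkbp4 knockdown day 0 library, Scap without the Fkbp5 knockdown day 0 library), and members lower in the day 3 contrast 0 to 1 (Scap). Between days 3 and 5, members that fell ranged from 1 to 17 and members that rose from 0 to 1 over left-out libraries, and DESeq2 called 0 that rose. The cause was not tested, but fewer libraries also leave fewer degrees of freedom. Against the control, members lower under the Fkbp5 knockdown were 2 with no filter, 1 without day 3 and 0 to 1 over left-out libraries, and members higher in the Fkbp4 knockdown were 1 with no filter. In the Fkbp5 against the Fkbp4 knockdown, 1 member was higher with no filter or by DESeq2 (0 to 1 over left-out libraries), and members lower were 6 with no filter, 2 by limma voom or without day 3, 0 without day 5 or with no day term, and 0 to 4 over left-out libraries. The Fkbp5 peak interaction had 2 members higher with no filter and 0 to 1 over left-out libraries; no value could be had without a day 3 library of the genotypes compared. No alternative turned the sign of a named call. All 30 members were kept at a mean of 1 or 10 CPM.

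Over all genes, calls between days 3 and 5 were 791, 1578 with no filter and 232 to 924 over left-out libraries. The day 3 contrast had 3186, and 1955 without the Fkbp4 knockdown day 3 library. Fkbp5 knockdown against control had 268, 866 with no filter, 128, 41 and 36 without day 0, 3 or 5, 3 with no day term and 40 to 296 over left-out libraries. Fkbp4 knockdown against control had 140, 690 with no filter, 224 by DESeq2, 86, 4 and 12 without those days, 0 with no day term and 4 to 258. Fkbp5 against Fkbp4 knockdown had 1649, 1094 by DESeq2, 806 and 250 without day 0 or 5, 4 with no day term and 487 to 2107. The peak interactions had 0 and 3, 76 and 50 with no filter, 5 each by DESeq2, and 0 to 55 and 1 to 39 over left-out libraries. No paired analysis was possible because the labels give no replicate numbers; libraries of a day were matched only through the day term. With 1 library per group, the spread within a day is unmeasured, and members with few reads (Tm7sf2, 53 in 1 library) also carry counting error.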
